A study of Homo sapiens with 6 samples.

Results

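The cyclins, the cyclin-dependent kinases (CDKs), the CDK inhibitors and the retinoblastoma (RB), E2F, CDC25 and WEE1 genes that act with them were examined in HCCLM3 cells with and without overexpression of *PON1*. The genes were taken by symbol from a list of 47 names, and 47 of them were found among the 20381 genes of the deposited count table. HCCLM3 is an established human hepatocellular carcinoma (HCC) line with high metastatic potential, and all libraries were made from it. The 3 PON1-OE libraries came from cells that stably overexpressed *PON1* after infection with a lentivirus carrying its coding sequence, and the 3 NC libraries came from cells given the empty vector. Both lines were selected with puromycin according to the study's methods, while the series' design text speaks of lysis after transfection and of another serum content. RNA was captured by oligo(dT) and sequenced without a step that marks the strand. Each group is a single infected line as far as the sources state, and how its 3 replicates were derived is not given, so the spread between them may be technical.

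The total of the estimated counts was 16506572 to 17948383 in the NC libraries and 15706672 to 16413730 in the PON1-OE libraries. *PON1* itself had 0, 2 and 3 counts in NC and 155, 181 and 167 in PON1-OE. Levels are given as per-million-scaled counts (CPM) with library sizes corrected by the trimmed mean of M values (TMM). Differences are given as log2FC (PON1-OE against NC) with p from the quasi-likelihood test of edgeR, adjusted by the Benjamini-Hochberg method over the 11958 genes tested. The liver identity of the line was partial. Transcription factors of hepatocytes were present, with 1223 to 1492 counts of *HNF4A*, while *ALB* had only 4 to 13 counts and *SERPINA1* and *TTR* stayed at or under 3. *PTPRC*, which marks leukocytes, had no count in any library.

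Cyclins are proteins whose amount rises and falls through the cell cycle, and a CDK is active only when a cyclin is bound to it. D-type cyclins with CDK4 or CDK6 begin the phosphorylation of the RB proteins in G1, E-type and A-type cyclins with CDK2 carry cells into and through S phase, and A-type and B-type cyclins with CDK1 drive G2 and mitosis. RB proteins hold E2F transcription factors in check until they are phosphorylated. The INK4 inhibitors bind CDK4 and CDK6, the CIP/KIP inhibitors bind many cyclin-CDK complexes, WEE1 kinases switch CDK1 off and CDC25 phosphatases switch it on again. Another branch of the family (CDK7 with cyclin H, CDK8 with cyclin C, CDK9 with cyclins T, and CDK12 and CDK13 with cyclin K) acts on RNA polymerase II. In liver tissue most hepatocytes rest outside the cycle, and loss of G1 control is a recurrent feature of HCC.

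Among transcripts of the G1 machinery, *CDK4* and *CCND1* had the highest levels. Per kilobase of exon, *CDK4* had the highest level of the 47 genes, with 236 ± 2.33 CPM per kb in NC (SD, n = 3), which put it at the 98.9th percentile of all genes tested. *CDC25B*, whose product activates CDK1, followed with 101 ± 2.55 CPM per kb and *CCND1*, encoding cyclin D1, with 101 ± 3.76 CPM per kb, so that these neighbours in the order did not differ beyond their spread. *CDKN1A*, encoding the inhibitor p21, was the fourth with 60.0 ± 2.19 CPM per kb and stood clear of both neighbours. *CCND2*, encoding cyclin D2, had no count in any of the 6 libraries. A count of 3, taken as the floor, corresponded to 0.166 to 0.192 CPM, and this limit covers counting error only. *CCND2* was therefore not tested, and the other 46 genes passed the filter on low counts.

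Most of the cell cycle machinery sat well below these genes. *CDK2* had 15.6 ± 0.772 CPM per kb and *CDK1* had 14.7 ± 0.323, which overlapped within their spread. *CDK6*, the partner kinase of *CDK4* in G1, had 2.67 ± 0.193 CPM per kb. *RB1* had 1.90 ± 0.0977 CPM per kb, below the related pocket protein genes *RBL1* (6.68 ± 0.269) and *RBL2* (6.12 ± 0.0801). Among the INK4 genes, *CDKN2A* (7.10 ± 0.222) and *CDKN2B* (6.66 ± 0.212) were both expressed, and *CDKN2C* was the lowest of the genes tested with 0.578 ± 0.0378 CPM per kb. Levels thus ran from 0.578 to 236 CPM per kb among the genes tested, a far wider range than any difference between the groups.

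**Figure D1:**
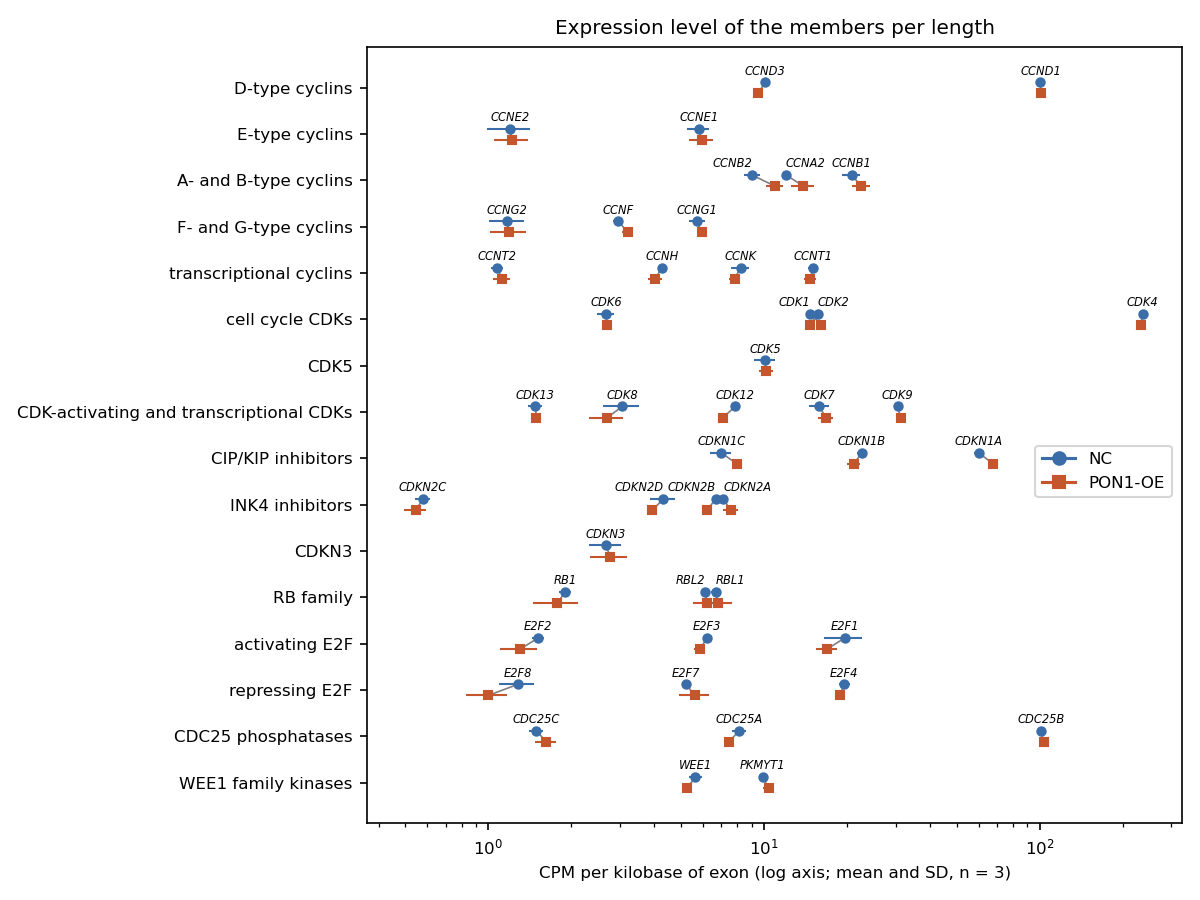
Expression level of each gene as CPM per kilobase of exon on a log axis, grouped by role, with the mean and SD of 3 NC libraries (blue circles) and 3 PON1-OE libraries (red squares). *CDK4* lies at 236 in NC and *CDKN2C* at 0.578, and the circle and the square of each gene lie close together. *CCND2* had no count and is not drawn.

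Of the 46 genes tested, 1 passed an adjusted p of 0.05, which was *CDKN1A*. Over all genes tested, 0.677% were called by this rule in either direction with 0.502% higher and 0.176% lower in PON1-OE. None of the 46 genes passed with the added fold threshold of the study, a change of 1.5-fold in either direction, which 0.0502% of all genes met with the adjusted p and 0.61% with the unadjusted p. Without adjustment, 5 genes (10.9%) were higher in PON1-OE, against 5.91% of all genes tested. These were *CDKN1A*, *CCNB2*, *CCNA2*, *CDK1* and *CDKN1C*. Another 2 (4.35%) were lower, *CDK12* and *E2F1*, against 5.17% of all genes. Without PON1-OE replicate 3, 2 genes were higher, and the number of lower genes was 4 without NC replicate 2 or PON1-OE replicate 1 and 1 without NC replicate 3 or PON1-OE replicate 3. The median log2FC was 0.015 over the 46 genes and -0.0025 over all genes tested, with 26 positive and 20 negative values. The median was negative when NC replicate 3 (-0.021), replicate 1 of PON1-OE (-0.0091) or its replicate 3 (-0.013) was left out.

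*CDKN1A* (ENSG00000124762, chr6:36676460-36687339 on GRCh38) encodes p21, the CIP/KIP inhibitor that is the classical target of p53. Its level was 183, 190 and 177 CPM in NC against 207, 208 and 204 CPM in PON1-OE. All 3 PON1-OE libraries lay above all 3 NC libraries, and the PON1-OE values were the more tightly grouped. The mean rose from 183 ± 6.67 to 206 ± 2.50 CPM (SD, n = 3), which was 12.8% higher with log2FC = 0.17 (SE 0.0401, 95% interval 0.09 to 0.26, edgeR adjusted p = 0.0484). The adjusted p lay close to the threshold, and it was 0.211, 0.347, 0.126, 0.0679 and 0.157 when NC replicate 1, NC replicate 3 or PON1-OE replicate 1, 2 or 3 was left out, so that each of these 5 libraries was needed for the call. The exact permutation test gave p = 0.1, the smallest value that 3 against 3 libraries allow. *CDKN1A* shares 146 exonic bases with the antisense transcript *DINOL*, which has no entry among the deposited counts. Without strand information, reads of the 2 in these bases cannot be told apart.

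**Figure D2:**
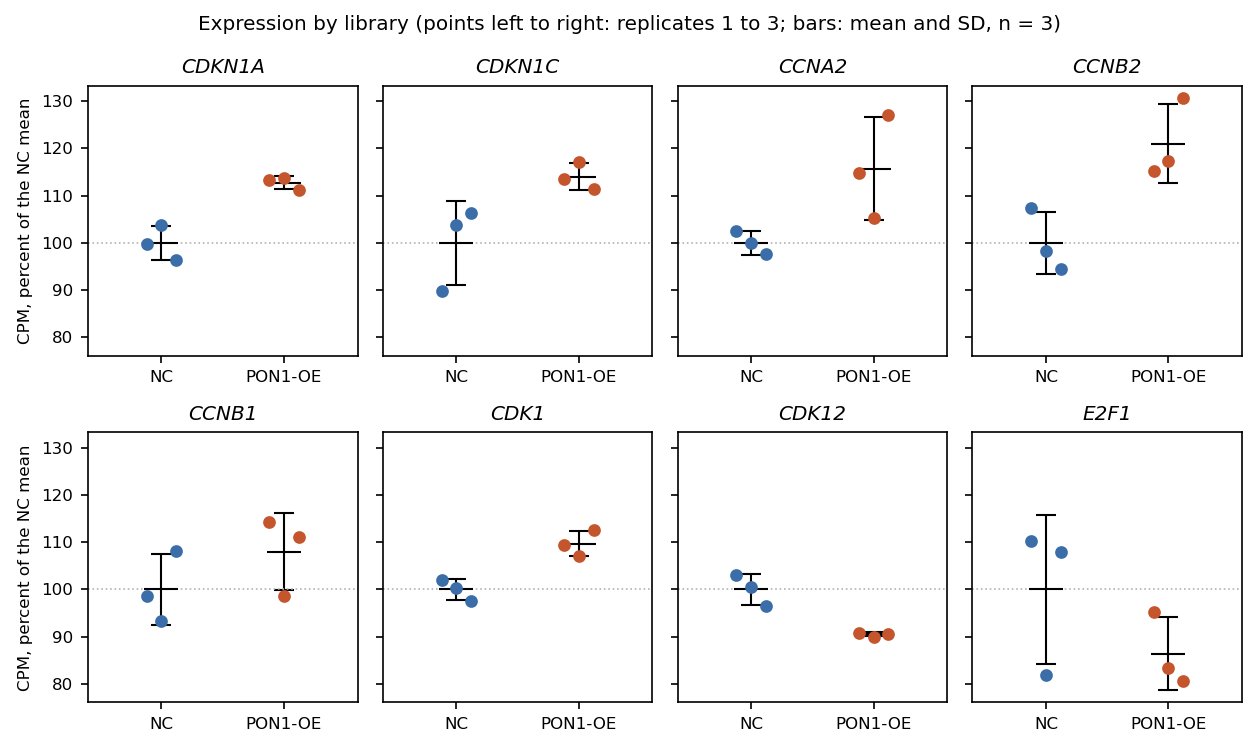
CPM of 8 genes in each of the 6 libraries, as a percentage of the gene's NC mean, with the group mean drawn as a line. For *CDKN1A*, *CDKN1C*, *CCNA2*, *CCNB2* and *CDK1* each PON1-OE library lies above each NC library, for *CDK12* below, and for *CCNB1* and *E2F1* the groups overlap.

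The other CIP/KIP genes did not pass the adjusted threshold. *CDKN1C*, encoding p57, had 15.6, 18.0 and 18.4 CPM in NC against 19.7, 20.3 and 19.3 CPM in PON1-OE. The groups did not overlap, and log2FC was 0.19 (SE 0.0897, unadjusted p = 0.0491, edgeR adjusted p = 0.450). Without NC replicate 1, the lowest of the 6, it was 0.12 (unadjusted p = 0.238), and the unadjusted p was under 0.05 in only 4 of 12 alternatives. *CDKN1B*, encoding p27, had 64.3, 61.0 and 65.6 CPM in NC against 62.7, 56.4 and 59.1 CPM in PON1-OE. These groups overlapped and the sign was the opposite, with log2FC = -0.10 (SE 0.0577, 95% interval -0.22 to 0.02, unadjusted p = 0.103). Summed over the 3 genes, the CIP/KIP level was 264 ± 4.34 CPM in NC against 286 ± 3.95 CPM in PON1-OE, of which *CDKN1A* made up the larger share.

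The A-type and B-type cyclins of S phase, G2 and mitosis all had positive log2FC values, and none passed the adjusted threshold. *CCNB2* (chr15:59105078-59125045), encoding cyclin B2, had 27.1, 24.8 and 23.9 CPM in NC against 29.1, 29.6 and 33.0 CPM in PON1-OE. Every PON1-OE library exceeded every NC library, and the highest was PON1-OE replicate 3. The log2FC of 0.28 (SE 0.0785, 95% interval 0.11 to 0.44) was the largest positive value among the 46 genes, a mean 21% higher, with unadjusted p = 0.00214 and edgeR adjusted p = 0.145. *CCNA2* (chr4:121816444-121823933), encoding cyclin A2, had 34.4, 33.5 and 32.7 CPM in NC against 38.5, 35.3 and 42.6 CPM in PON1-OE. The NC libraries were close together, while the PON1-OE libraries were spread over a wider range above them (33.5 ± 0.839 against 38.8 ± 3.67 CPM), with log2FC = 0.21 (SE 0.0736, unadjusted p = 0.00948, edgeR adjusted p = 0.252). Without PON1-OE replicate 3, its unadjusted p was 0.0898. Exons of *CCNA2* share 254 bases with *EXOSC9* on the other strand, and since the libraries carry no strand these reads cannot be told apart. *EXOSC9* had log2FC = -0.16 (unadjusted p = 0.142).

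*CCNB1*, encoding cyclin B1, had 52.4, 49.6 and 57.5 CPM in NC against 60.7, 52.5 and 59.1 CPM in PON1-OE. The groups overlapped, with log2FC = 0.11 (SE 0.0674, 95% interval -0.03 to 0.25, unadjusted p = 0.113). Summed over *CCNA2*, *CCNB1* and *CCNB2*, the level was 112 ± 3.52 CPM in NC against 127 ± 8.72 CPM in PON1-OE. *CDK1* (chr10:60778331-60794852), the kinase that these cyclins activate, had 59.0, 58.0 and 56.5 CPM in NC against 63.3, 62.0 and 65.1 CPM in PON1-OE. All PON1-OE values lay above all NC values, a mean difference of 9.71% (log2FC = 0.13, SE 0.0542, unadjusted p = 0.0225, edgeR adjusted p = 0.358). Its unadjusted p was 0.0806 without NC replicate 3 and 0.0798 without PON1-OE replicate 3. By flow cytometry, the paper reported arrest in G0/G1 and a lower share of cells in G2/M after *PON1* overexpression in HCCLM3. How the positive log2FC values of these transcripts relate to that shift was not tested. In bulk libraries, fewer or more cells in a phase of the cycle cannot be told apart from a change of the transcript within each cell.

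Genes of the G2 and mitosis program often share promoter elements, a CCAAT box and the cell cycle gene homology region (CHR), whereas G1 and S phase genes often carry E2F elements. The bases just upstream of *CCNB2*, *CCNA2* and *CDK1* are shown because these genes had low unadjusted p values and positive log2FC, and those of *E2F1* and *CDC25A* because they act at the G1 and S phase side and had negative values. The stretches were cut from RefSeq promoter windows on GRCh38.p14 and hold only bases outside the annotated exons. They are written 5′ to 3′ on the strand of the gene, and capitals mark matches to CCAAT (or ATTGG) and to an E2F element, which was TTCCCGC, its variant TTCGCGC, the form TTGCCGC, the form TTGGCGC or a reverse complement of these. They lie at chr15:59104948-59105077 on the plus strand, chr4:121823934-121824063 on the minus strand, chr10:60778228-60778330 on the plus strand, chr20:33686405-33686534 on the minus strand and chr3:48188418-48188547 on the minus strand, in the order given. The stretches end 68, 50, 147, 19 and 0 bases before the RefSeq start. For *CDK1* the 147 bases refer to the later of its RefSeq starts, and the stretch ends directly before the earlier one. CCAAT and CHR matches of *CDK1* nearer the later start lie in annotated exons and are not shown.
CCNB2: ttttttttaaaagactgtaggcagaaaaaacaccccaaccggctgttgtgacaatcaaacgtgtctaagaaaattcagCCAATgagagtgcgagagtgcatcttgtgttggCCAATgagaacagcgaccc
CCNA2: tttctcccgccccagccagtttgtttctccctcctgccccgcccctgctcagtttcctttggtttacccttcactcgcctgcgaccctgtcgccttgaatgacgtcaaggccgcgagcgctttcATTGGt
CDK1: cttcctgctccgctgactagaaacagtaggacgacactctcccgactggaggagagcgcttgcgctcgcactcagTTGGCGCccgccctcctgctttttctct
E2F1: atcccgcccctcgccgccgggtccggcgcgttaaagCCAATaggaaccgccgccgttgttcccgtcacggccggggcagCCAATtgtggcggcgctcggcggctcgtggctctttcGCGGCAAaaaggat
CDC25A: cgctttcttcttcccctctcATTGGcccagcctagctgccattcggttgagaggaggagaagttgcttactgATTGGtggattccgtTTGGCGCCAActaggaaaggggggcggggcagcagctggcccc

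The *CCNB2* and *E2F1* stretches hold 2 CCAAT matches each, and *CDC25A* holds 2 overlapping E2F matches in its capital run beside 2 CCAAT matches. Over whole windows (250 bases before to 50 bases after each start), 39 of the 47 genes had an entry. A gene counted if any of its windows held a match, so genes with several starts had more chances. The 39 genes had 58 windows, and the 27305 genes with a window had 35116, so the shares below are not matched for the number of windows. A CCAAT match on either strand was present for 21 of 39 (53.8%), against 39.7% of 27305 genes with a window. The CHR letters TTTGAA (or TTCAAA) were present for 7 of 39 (17.9%), against 18.2% of all genes. Among these *CCNB2* carried a match 29 bases before its start and *CDK1* carried matches in both of its windows. The others were *CCNF*, *CDC25C*, *CDKN3*, *E2F3* and *RBL2*, while *CCNA2* and *CCNB1* had no CHR match. CCAAT and CHR occurred in the same window for 6 of 39 (15.4%), against 7.26%, and an E2F match for 11 of 39 (28.2%), against 15.3%. The windows of *CDKN1A* and *CDK12* held no match to any of these letters. A match is a description of the sequence only, and binding was not measured.

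The transcripts of the G1 cyclins and kinases gave no call, and the most abundant of them, *CCND1* and *CDK4*, had log2FC values near 0. *CCND1* (chr11:69641087-69654474) had 482, 505 and 469 CPM in NC against 482, 485 and 495 CPM in PON1-OE. The groups overlapped fully, with log2FC = 0.0047 (SE 0.0357, 95% interval -0.07 to 0.08, unadjusted p = 0.896). *CDK4* (chr12:57747727-57756013) had 745, 741 and 755 CPM in NC against 727, 766 and 719 CPM in PON1-OE. Its mean was 747 ± 7.39 in NC and 737 ± 25.0 in PON1-OE (log2FC = -0.02, 95% interval -0.09 to 0.05), so that a difference of the size seen for *CCNB2* lies outside the interval. *CDK4* shares 1369 exonic bases with *TSPAN31* on the other strand and *CCND1* shares 497 with *LTO1*. *CDK6* had 31.7, 35.4 and 31.0 CPM in NC against 34.2, 31.5 and 33.5 CPM in PON1-OE, with overlapping groups and log2FC = 0.01 (SE 0.0731). *CCND3*, encoding cyclin D3, was lower in each PON1-OE library (53.6 to 57.8 CPM) than in each NC library (57.9 to 59.3 CPM), with log2FC = -0.08 and unadjusted p = 0.148.

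Among the E-type cyclins and *CDK2*, which act at entry into S phase, no difference was detected. *CCNE1*, encoding cyclin E1, had 14, 16.3 and 14 CPM in NC against 14.4, 16.9 and 14.1 CPM in PON1-OE. *CCNE2*, encoding cyclin E2, had 6.12, 5.42 and 4.28 CPM in NC against 5.60, 4.50 and 5.94 CPM in PON1-OE. Both pairs of groups overlapped, with log2FC = 0.03 (SE 0.104) for *CCNE1* and 0.02 (SE 0.170) for *CCNE2*. The low counts of *CCNE2* leave an interval of -0.33 to 0.38. *CCNE2* also shares 1629 exonic bases with *INTS8* on the other strand, which had 43.8 CPM in NC, so its counts are uncertain. Exons are shared in the same way with counted genes by *CDK2*, *CDK5*, *CCNH*, *CCNK*, *RBL2*, *CDC25C* and *PKMYT1*, with the most bases for *CCNK* (4893, with *CCDC85C*). Antisense transcripts without an entry among the deposited counts also share exons with several of the genes. Examples are *CDKN1A* (146 bases, with *DINOL*) and *CDKN2A* (341 bases, with *CDKN2B-AS1*). *CDK2* had 61.6, 57.5 and 63.3 CPM in NC against 56.4, 57.8 and 56.9 CPM in PON1-OE. PON1-OE replicate 2 just exceeded NC replicate 2, and log2FC was -0.09 (SE 0.0567, unadjusted p = 0.121).

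The INK4 inhibitors, which act on CDK4 and CDK6, had no member past either threshold. *CDKN2A*, which encodes p16 and, in another reading frame, ARF, had 31.6, 31.0 and 29.7 CPM in NC against 34.2, 33.8 and 30.5 CPM in PON1-OE. Gene counts do not separate these products. The groups overlapped through PON1-OE replicate 3, with log2FC = 0.10 (SE 0.0717, unadjusted p = 0.194). Its neighbour *CDKN2B*, encoding p15, had 26.3 to 28.0 CPM in NC against 24.2 to 25.8 CPM in PON1-OE without overlap (log2FC = -0.10, unadjusted p = 0.178). *CDKN2D* (5.69 to 7.02 CPM over all libraries) and *CDKN2C* (1.63 to 2.06 CPM) overlapped, and the interval of *CDKN2C* reached from -0.62 to 0.46. *CDKN3*, a phosphatase gene that is named with the inhibitors but belongs to neither family, ranged from 4.16 to 5.62 CPM with log2FC = 0.05.

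The RB family overlapped between the groups in each of its 3 genes. *RB1* (chr13:48303726-48599436) had 11.8, 13 and 12 CPM in NC against 13.1, 9.07 and 12.3 CPM in PON1-OE. PON1-OE replicate 2 was the lowest and PON1-OE replicate 1 the highest of the 6, with log2FC = -0.10 (SE 0.124, unadjusted p = 0.439). The related *RBL1* and *RBL2*, encoding p107 and p130, had log2FC values of 0.02 and 0.02.

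The activating E2F genes, which switch on genes of S phase, all had negative log2FC values. *E2F1* (chr20:33675683-33686404) had 54.0, 40.1 and 52.8 CPM in NC against 46.6, 40.8 and 39.5 CPM in PON1-OE. NC replicate 2 lay among the PON1-OE libraries and apart from the other NC libraries, so the groups overlapped. The log2FC was -0.21 (SE 0.0904, 95% interval -0.40 to -0.02) with unadjusted p = 0.0325, edgeR adjusted p = 0.397 and an exact permutation p of 0.3. The value depended on single libraries. Without NC replicate 2 it was -0.33 with an edgeR adjusted p of 0.0339, while it was -0.13 without NC replicate 1 (unadjusted p = 0.195), -0.15 without NC replicate 3 (unadjusted p = 0.163), -0.18 without PON1-OE replicate 2 (unadjusted p = 0.0987) and -0.16 without PON1-OE replicate 3 (unadjusted p = 0.130). *E2F2* ranged from 7.79 to 8.56 CPM in NC against 6.21 to 8.32 CPM in PON1-OE (log2FC = -0.22, unadjusted p = 0.124) and *E2F3* had log2FC = -0.09 (unadjusted p = 0.206). Summed over the 3 genes the level was 89.3 ± 7.55 CPM in NC against 79.5 ± 1.82 CPM in PON1-OE.

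The repressing E2F genes did not share a direction. *E2F8*, which represses E2F targets late in S phase, had the most negative log2FC of the 46 genes, -0.36 (95% interval -0.73 to 0.01, unadjusted p = 0.0577). It ranged from 4.48 to 5.98 CPM in NC against from 3.32 to 4.63 CPM in PON1-OE, and the groups overlapped. Its close relative *E2F7* had log2FC = 0.11 with overlapping groups, and *E2F4*, the partner of p107 and p130 in resting cells, had -0.06 (unadjusted p = 0.290).

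The enzymes that set the inhibitory phosphorylation of CDKs gave no call. *CDC25A*, the phosphatase of G1 and S phase, had 31.4, 35.2 and 33.5 CPM in NC against 31.2, 31.1 and 29.9 CPM in PON1-OE. The groups were separated by a narrow gap between PON1-OE replicate 1 and NC replicate 1, with log2FC = -0.12 (SE 0.0708, unadjusted p = 0.106). *CDC25B* and *CDC25C*, which act toward mitosis, had log2FC values of 0.04 and 0.12 (unadjusted p = 0.319 and 0.449). *WEE1*, the kinase that opposes them, had 54.3, 48.9 and 52.8 CPM in NC against 49.7, 47.0 and 48.7 CPM in PON1-OE. Only PON1-OE replicate 1 exceeded the lowest NC library, and log2FC was -0.10 (SE 0.0610, unadjusted p = 0.115). *PKMYT1*, the membrane-bound relative of *WEE1*, had log2FC = 0.07 (unadjusted p = 0.253).

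Of the CDKs that act on RNA polymerase II, *CDK12* had the lowest unadjusted p. *CDK12* (chr17:39461511-39564907), which phosphorylates the polymerase during elongation and supports the transcription of long DNA repair genes, had 103, 101 and 96.7 CPM in NC against 91.1, 90.2 and 90.7 CPM in PON1-OE. The PON1-OE libraries were almost equal and lay below all NC libraries, a difference of means of -9.51%, with log2FC = -0.14 (SE 0.0468, 95% interval -0.24 to -0.05, unadjusted p = 0.00577, edgeR adjusted p = 0.217). Its paralog *CDK13* had log2FC = 0.01 (unadjusted p = 0.871), and *CCNK*, which encodes the cyclin of both kinases, had -0.07 (unadjusted p = 0.256). *CDK7*, *CDK8* and *CDK9* had log2FC values of 0.08, -0.18 and 0.03, all with overlapping groups. *CCNH*, encoding the cyclin of CDK7, had -0.08, and *CCNT1* and *CCNT2*, encoding cyclins of CDK9, had -0.04 and 0.05. The cyclin of CDK8 is encoded by *CCNC*, one of the other cyclin genes described further on, which had 0.05. *CDK5*, best known from neurons, had 0.02. It shares 331 exonic bases with *SLC4A2* on the other strand. *SLC4A2* had 328 CPM in NC and log2FC = -0.11 (unadjusted p = 0.0178).

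The remaining cyclins are *CCNF*, a substrate receptor of a ubiquitin ligase, and the stress-related *CCNG1* and *CCNG2*. *CCNF* had 18.0 to 19.5 CPM in NC against 19.5 to 21.3 CPM in PON1-OE, which did not overlap by a margin smaller than the rounding shown (log2FC = 0.12, unadjusted p = 0.189). *CCNG1*, a p53 target like *CDKN1A*, had log2FC = 0.05 (unadjusted p = 0.544), and *CCNG2*, a FOXO target, had 0.02 (unadjusted p = 0.872).

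**Figure D3:**
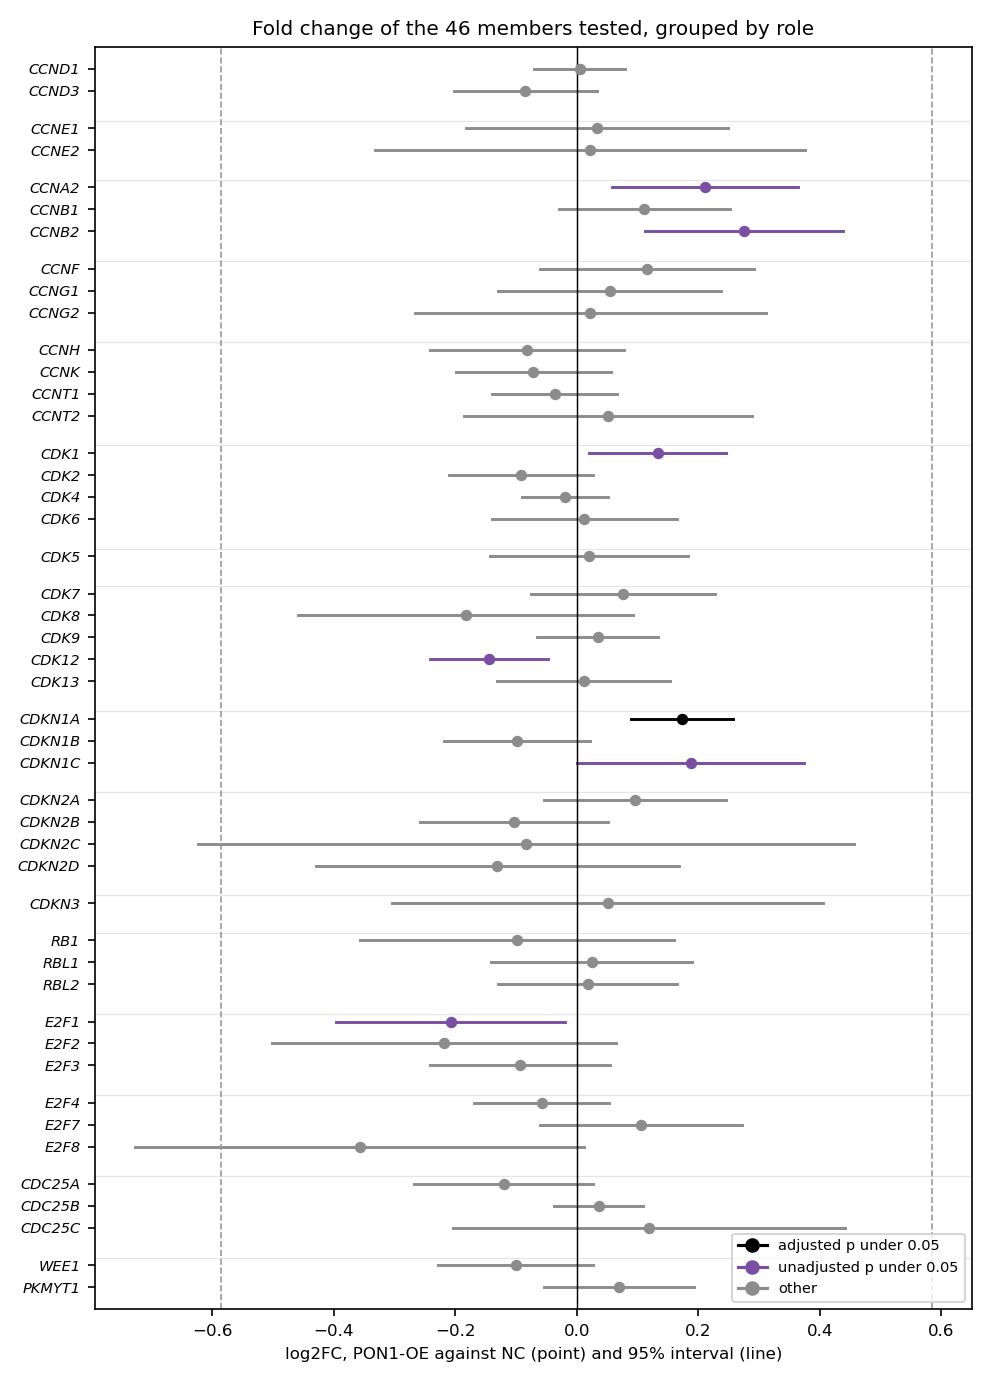
The log2FC (PON1-OE against NC) of the 46 genes tested, with the 95% interval of edgeR's quasi-likelihood fit as a bar and the study's threshold of a 1.5-fold change in either direction as dashed lines. The estimates run from -0.36 for *E2F8* to 0.28 for *CCNB2*, and the bars of *CDKN2C* and *E2F8* alone cross a dashed line.

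The precision of the libraries sets what can be said of the genes without a call. The 95% interval lay wholly inside a 1.5-fold change for 44 of the 46 genes (95.7%), against 86.1% of all genes tested, with *CDKN2C* and *E2F8* as the exceptions. Changes as large as the study's threshold therefore lay outside the interval for these 44 genes, and the half-width of the interval was under 0.2 on the log2 scale for 34 of the 46. The median coefficient of variation within a group was 5.04% in NC and 5.21% in PON1-OE, and the highest was 18.5% for *RB1* in PON1-OE. Counting groups that did not overlap, 6 genes (13%) were higher and 4 (8.70%) were lower in PON1-OE, against 8.32% and 7.74% of all genes tested.

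Further regulators of the same pathway were read from 9 lists of genes that are not among the 47. Their counts without adjustment are to be read beside the 5.91% of all genes tested that were higher and the 5.17% that were lower. Of 10 other cyclin genes tested, none had an unadjusted p under 0.05. Of 10 other CDK genes 1 was higher, *CDK11A* (log2FC = 0.24, unadjusted p = 0.00381). It shares much of its sequence with *CDK11B*, so that its counts are uncertain. None of the 10 was lower by this rule, but 7 of the values were negative and 3 were positive, with a median of -0.10. Among 29 CDK partners and ubiquitin ligase subunits 5 were higher and 1 lower, with *SKP1*, a scaffold of SCF ligases, at 0.16 (unadjusted p = 0.00116) and *UBE2S*, which extends ubiquitin chains for the anaphase-promoting complex, at 0.13 (unadjusted p = 0.00256). The other 3 higher ones, named after their values were seen, were *CDC20*, *FZR1* and *UBE2C*, which activate the anaphase-promoting complex or pass ubiquitin to it. The lower one, also named after its value was seen, was *HEXIM1*, encoding an inhibitor of CDK9, at -0.25. None of these passed the adjusted threshold, and the median over the 29 genes was 0.03. Without NC replicate 2 or PON1-OE replicate 1, 3 of the 29 were higher.

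In 16 checkpoint and mitotic kinase genes, 2 were higher and 1 lower without adjustment. The higher ones were *PLK1* and *PLK3*, and *PLK3* is counted again among the p53 target genes further on. *PLK1*, the kinase that promotes entry into mitosis, had log2FC = 0.23 (unadjusted p = 0.00232), and *CLSPN*, an adaptor for CHEK1 at stalled forks, had -0.30 (unadjusted p = 0.00302). Of 13 proliferation and mitosis genes 1 was higher, *TPX2* at 0.13, with a median of 0.05, and 12 did not have an unadjusted p under 0.05. This list followed single libraries, with 0 higher and 1 lower without NC replicate 2, 3 higher without PON1-OE replicate 2 and a median of -0.05 without PON1-OE replicate 1. The 19 E2F target genes of S phase entry had none higher and 2 lower, *UHRF1* at -0.18 and *PCNA* at -0.10, with 13 of 19 values negative and a median of -0.03. Their summed level was 2791, 2563 and 2783 CPM in NC against 2726, 2655 and 2583 CPM in PON1-OE, so that NC replicate 2 was the lowest of the 6 and the groups overlapped. Without NC replicate 2, 4 of the 19 were lower, without NC replicate 1 or PON1-OE replicate 3, 1 was, and without NC replicate 3, 0 were. For *UHRF1*, the log2FC was -0.11 (unadjusted p = 0.116) without NC replicate 1 and -0.26 without NC replicate 2. Among 11 E2F partners and subunits of the DREAM complex, *TFDP2* alone had an unadjusted p under 0.05 (log2FC = -0.24).

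Targets of p53 and of FOXO factors were among the lists read, and the cause of the *CDKN1A* difference was not tested. Of 20 p53 target genes tested, 2 were higher without adjustment, *SESN2* at 0.25 and *PLK3* at 0.20, none was lower, and none passed the adjusted threshold. The number higher was 4 when replicate 1 of PON1-OE was left out and 1 when its replicate 3 was. Of 12 FOXO target genes tested, 3 were higher and 1 was lower without adjustment. *BTG1*, an antiproliferative gene, rose with log2FC = 0.17 and an edgeR adjusted p of 0.0433, which was 0.164, 0.138, 0.138, 0.130 and 0.254 without NC replicate 1, 2 or 3 or PON1-OE replicate 1 or 3. *BCL6*, a transcriptional repressor, had -0.20. The other 2 higher ones, *PIK3IP1* at 0.72 and *TXNIP* at 0.45, are named after their values were seen and did not pass the adjusted threshold.

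**Figure D4:**
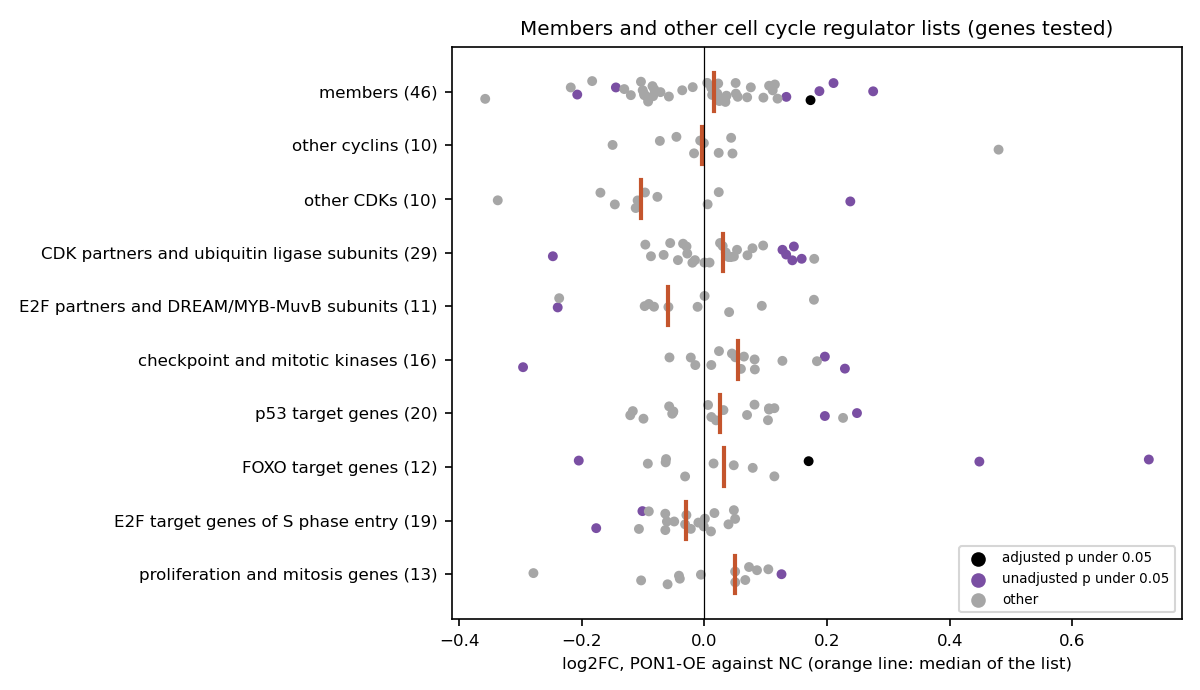
The log2FC (PON1-OE against NC) of each gene tested, for the 46 cyclin, CDK and inhibitor genes and for 9 lists of related genes, with the median of each list as a line. The medians run from -0.10 (other CDKs) to 0.06 (checkpoint and mitotic kinases), beside a median of -0.0025 over all genes tested.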

How the data were processed

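Poly(A) RNA of 3 PON1-OE and 3 NC HCCLM3 samples was sequenced. The authors deposited estimated counts per gene, not normalized, of which 10.5% were not whole numbers. The submitters' processing notes name Bowtie2 2.2.8, HISAT2, StringTie 1.3.1 and DESeq2 without their roles. The counting tool, the build and the annotation are not given in the sources used here. Coordinates and exon lengths came from GENCODE v29 (GRCh38), matched for 20126 identifiers, and promoters from RefSeq.

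These values were rounded and then fitted with edgeR 4.0.16 under R 4.3.3 (filterByExpr, TMM, quasi-likelihood test, no covariates). The planned test for counts was kept. Alternatives were RLE scaling, other filters, the replicate number as a block, DESeq2 1.42.0, limma-voom (limma 3.58.1), a fold threshold and each library left out in turn. The fits were tested on simulated data. Exact permutation tests were two-sided. Pairs of libraries differed by more than sampling noise, so each was counted as 1 replicate. Intervals from counts and floors cover counting error only.

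The genes and lists were chosen with earlier results of these data known. Genes described in full were 16 core genes and those with an unadjusted p under 0.05, and from each other list up to 2 genes with the lowest unadjusted p and those past the adjusted threshold.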

Additional observations from a re-analysis of the deposited data

How the results depend on the processing

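The count of 1 gene past the adjusted threshold became 0 with the replicate number as a block, 0 with limma-voom and 0 with the fold threshold added, and 0 to 2 when 1 library was left out, with 2 (*CDKN1A* and *E2F1*) without NC replicate 2. It stayed at 1 with RLE scaling, without a filter, with at least 10 counts in every library and with DESeq2. The adjusted p of *CDKN1A* was 0.0940 with the block, 0.0540 with limma-voom, 0.00844 with DESeq2 and 0.0131 to 0.0488 under the other scaling and filters, and its unadjusted p was under 0.05 in 12 of 12 alternatives. Of the genes at an unadjusted p under 0.05, the number higher was 2 to 6 when a library was left out, with 2 without PON1-OE replicate 3. The number lower was 1 with limma-voom and 1 to 4 when a library was left out. *CCNB2* and *CDK12* kept an unadjusted p under 0.05 in 12 of 12 alternatives, *CCNA2* in 11, *CDK1* in 10, *E2F1* in 7 and *CDKN1C* in 4. Groups that did not overlap numbered 14 to 18 when a library was left out, against 10, a rise that fewer libraries alone can give. The 19 named genes of the other lists kept their sign in 228 of 228 values, and the adjusted p of *BTG1* was 0.0787 with the block, 0.0506 with limma-voom and 0.00386 to 0.0424 with DESeq2 and the other scaling and filters. The adjusted calls of *CDKN1A* and *BTG1* were each lost in 7 of 12 alternatives. Some named genes of the other lists gained an adjusted call. *SESN2* had an adjusted p of 0.00596 without a filter and 0.00492 without PON1-OE replicate 2. *PLK1* had 0.0297 without a filter, *SKP1* had 0.0490 with DESeq2 and *UHRF1* had 0.0339 without NC replicate 2. The median log2FC was -0.021 to 0.022 when a library was left out.

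Over all genes tested, 81 passed the adjusted threshold, 177 without a filter, 40 with the block and 11 to 103 when a library was left out, the lowest without NC replicate 3. At an unadjusted p under 0.05, 618 were lower, and 366 with DESeq2. The cause was not tested. The correlations of same-numbered libraries were 0.037, -0.082 and -0.035, and those of differently numbered ones ran from -0.109 to 0.129. With 3 libraries per group and their derivation not given, these values cannot decide whether the replicate numbers pair the libraries. DESeq2 gave no adjusted p for 18 of the 46 genes, *CCNB2*, *CDKN1C* and *E2F8* among them, so its count of 1 rests on the other 28. The spread among 3 libraries limits which differences can be called, and this limit differed between genes. *CDKN1A* passed the adjusted threshold with log2FC = 0.17 (SE 0.0401), while *CCNB2* did not with 0.28 (SE 0.0785).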

Other observations

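*CCND1* and the INK4 genes *CDKN2A* and *CDKN2B* lie in regions that are often gained or lost in HCC, and the transcripts of their neighbours were read as well. Of 11 genes around *CCND1* on chromosome 11, 8 were tested and none had an unadjusted p under 0.05. *FGF19*, *FGF3* and *FGF4*, which flank *CCND1*, had no count in any library. Of 8 genes around *CDKN2A* on chromosome 9, 6 were tested, again with none under this threshold, and *MTAP*, the nearest of them, had 510 to 599 counts.

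The lowest library was not evenly spread over the replicates. Within NC, replicate 3 was the lowest for 22 of the 46 genes (47.8%), against 32.2% of all genes tested. Within PON1-OE, replicate 2 was the lowest for 19 of 46 (41.3%), against 37.2%. These shares were looked at after the values were seen and were not tested.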
